A study of Equus asinus with 6 samples.

Results

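The F-box proteins (FBXO, FBXL and FBXW), the ankyrin repeat and SOCS box proteins (ASB) and the kelch-like proteins (KLHL) are substrate adaptors of ubiquitin ligases. They were taken from the gene table of a donkey muscle study by symbol: every gene whose name is FBXO, FBXL, FBXW, ASB or KLHL followed by a number, except FBXO32, the F-box gene of muscle atrophy also known as atrogin-1. The rule uses names only and gave 110 of the 20873 genes listed, with 34 FBXO, 18 FBXL, 7 FBXW, 17 ASB and 34 KLHL genes. The RNA came from longissimus dorsi, the long back muscle, of Guangling donkeys, a Chinese breed, aged 24 months. The study compared 3 libraries of muscle rich in intramuscular fat (high IMF) with 3 of muscle poor in it (low IMF). Breed, age and tissue are the same in both groups, no treatment is named, and the fat content itself is not given in the labels. The labels do not tie each library to an animal of its own, and a p-value here therefore reflects library-to-library spread, which may be technical.

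A cullin-RING ligase is built on a cullin scaffold that carries a RING protein, which brings the ubiquitin-conjugating enzyme, at its far end, and an exchangeable adaptor, which holds the protein to be ubiquitinated. F-box proteins attach through SKP1 to CUL1, ASB proteins through elongins B and C to CUL5, and BTB-kelch proteins attach directly to CUL3. In striated muscle, adaptors of all these classes are known from the turnover of filamins and insulin receptor substrate, the control of fibre mass and the stability of thin filaments, and loss of KLHL40 or KLHL41 causes nemaline myopathy in people.

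The libraries held 39052998 to 47494157 counted reads, and the adaptors took 0.754% to 0.904% of them. Levels of a gene between libraries are given as CPM, reads scaled to library size, after TMM scaling, and a count of 3 reads corresponds to 0.0632 to 0.0768 CPM. Levels between genes are compared only as the FPKM values the authors deposited, which are per gene length. The labelled tissue fitted its markers, with the fibre genes ACTA1 at 16150 to 23573 FPKM and CKM at 13345 to 31162 FPKM. Low IMF replicates 2 and 3 stood closer to each other than any other pair of a group: the SD of their log2 differences over genes was 0.512, against 0.893 to 1.17 for the other pairs. High IMF replicate 1 stood apart in fibre type: slow troponin and myosin genes (TNNT1, TNNI1 and MYL2) held 74.6% of the summed CPM of slow and fast fibre genes (with TNNT3, TNNI2, TNNC2 and MYLPF), against 25.9% and 19.8% in the other high IMF libraries and 36.9%, 23.5% and 26.0% in low IMF replicates 1, 2 and 3. That split of the fibre markers was made after their values were seen. In muscle pieces, fewer cells of a type and less RNA per cell cannot be told apart.

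The adaptors of this muscle were led by a few kelch and ASB genes. KLHL41, which stabilises nebulin, had by far the highest level of the 110 genes, a mean of 1117 FPKM (821 to 1416 over the 6 libraries). ASB2, the filamin-directed adaptor that limits muscle mass, followed with 256 FPKM (191 to 334), and KLHL40, which stabilises leiomodin 3 and nebulin, with 136 FPKM (69.9 to 295). The ranges of KLHL41 and ASB2 did not touch, whereas those of ASB2 and KLHL40 overlapped over the libraries. Next came ASB5 at 99.4 FPKM, KLHL31 at 84.7, the insulin receptor substrate adaptor FBXO40 at 70.3, ASB16 at 68.0 and ASB11 at 58.4 FPKM, whose ranges overlapped from each to the next.

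Most of the other adaptors were far lower. The median over the 110 genes was 4.28 FPKM, 27 genes averaged above 10 FPKM and 19 below 1 FPKM. By family the median was 9.64 FPKM for ASB, 7.52 for FBXW, 3.94 for KLHL, 3.44 for FBXL and 2.41 for FBXO. In each family a few genes led: FBXO31, which targets cyclin D1, and FBXO3 after FBXO40 among the FBXO genes (35.2 and 28.0 FPKM), FBXL17, FBXL18 and FBXL4 among the FBXL genes (11.7, 7.63 and 7.35), and FBXW5, FBXW4 and FBXW2 among the FBXW genes (35.6, 17.0 and 8.77). Of the CPM summed over all adaptors, 58.7% belonged to KLHL genes and 22.2% to ASB genes, and the 5 genes of highest CPM held 58.8%. KLHL41 alone held 37.0%, 35.8% and 27.4% of it in the high IMF libraries, replicates 1 to 3 in order, against 43.4%, 29.5% and 29.5% in the low IMF libraries in the same order, and these shares overlapped between the groups.

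**Figure D1:**
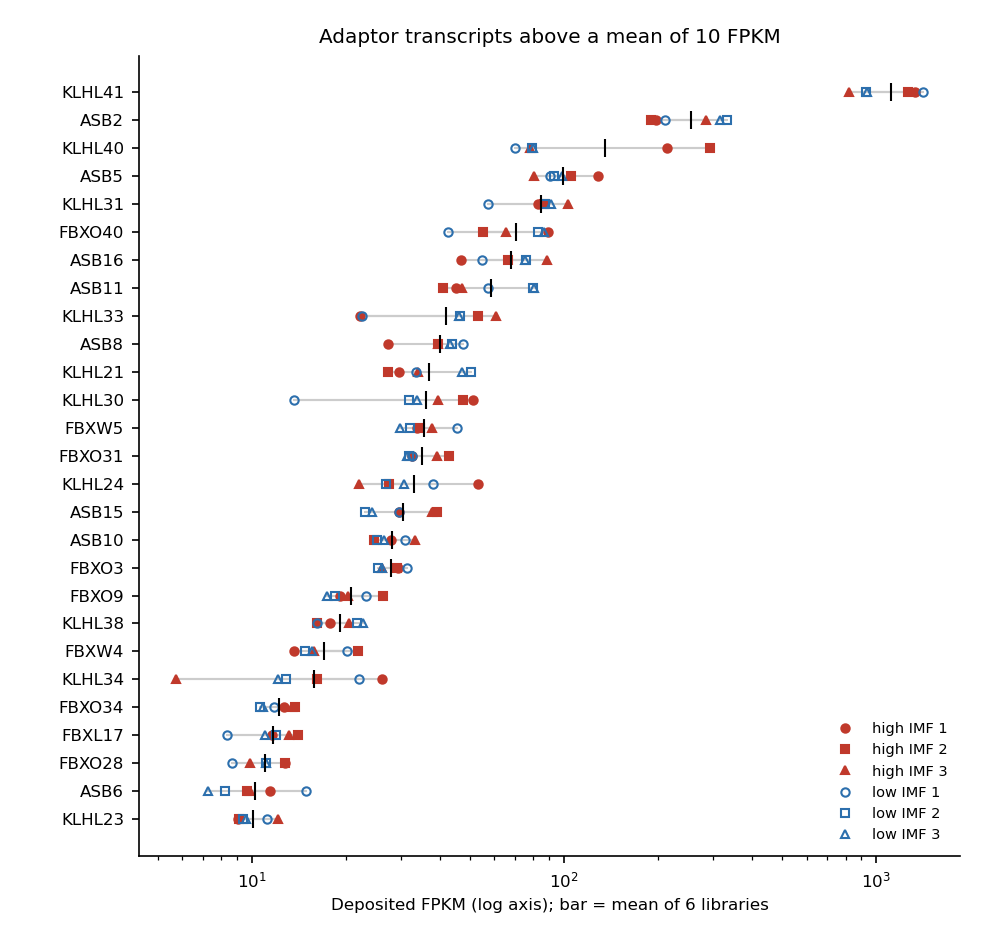
Deposited FPKM per library, on a log axis, of the 27 adaptors whose mean is above 10 FPKM, each point 1 library (high IMF filled, low IMF open) and the bar the mean. KLHL41, with a mean of 1117 FPKM, lies apart from the rest, and the next genes down overlap in their ranges.

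At the low end 7 genes had too few reads to be tested: FBXL13 (15 reads over the 6 libraries), FBXO47 (45), FBXO16 (25), FBXO43 (9), FBXO15 (4), FBXO41 (2) and KLHL32 (26). A difference between the groups was not detectable for them at this depth. The other 103 genes passed the filter on low counts, 29 FBXO, 17 FBXL, 7 FBXW, 17 ASB and 33 KLHL genes.

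Between high and low IMF muscle, no adaptor passed the test. With edgeR's quasi-likelihood test and Benjamini-Hochberg adjustment over the 15933 genes tested, 0 of 103 adaptors had an adjusted p under 0.05, as did 0% of all genes. Without adjustment 3 adaptors (2.91%) had p under 0.05, 1 higher (KLHL40) and 2 lower (ASB11 and ASB9) in high IMF muscle, against 7.27% of all genes, 4.53% higher and 2.74% lower. DESeq2, which called 1.16% of all genes at an adjusted p under 0.05, called 0 adaptors and gave 4 at an unadjusted p under 0.05. The authors' deposited log2 differences for the adaptors differed from those of DESeq2 by at most 0.000482. Their unadjusted p was under 0.05 for 4 of the 110 adaptors, against 7.54% of genes, so the adaptors did not stand out by that count. By the adjusted p in the authors' deposited table, 1.15% of genes and 0 adaptors passed 0.05, the smallest adjusted p of an adaptor being 0.128, that of KLHL40. On simulated counts of the same depth and spread, 100 genes were changed 2-fold and 100 genes 4-fold. Of these edgeR called 8% of the genes changed 2-fold and 73% of the genes changed 4-fold. In that setting 2-fold differences were mostly below what edgeR called.

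The differences were small as well as uncalled. Of the 103 adaptors 54 had a positive and 49 a negative log2 difference, with a median of 0.03 against 0.01 for all genes. The median size of the difference, whatever its sign, was 0.14 (log2) for the adaptors and 0.22 for all genes, and 8.74% of the adaptors against 22.7% of all genes differed by more than 0.5. Spread within the groups was much alike in both: the median within-group SD was 0.327 (log2) for the adaptors and 0.350 for all genes. It was smallest for the FBXO genes (0.248) and largest for the FBXL genes (0.433). The median difference was 0.04 for FBXO, 0.13 for FBXL, -0.05 for FBXW, -0.04 for ASB and 0.06 for KLHL genes.

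**Figure D2:**
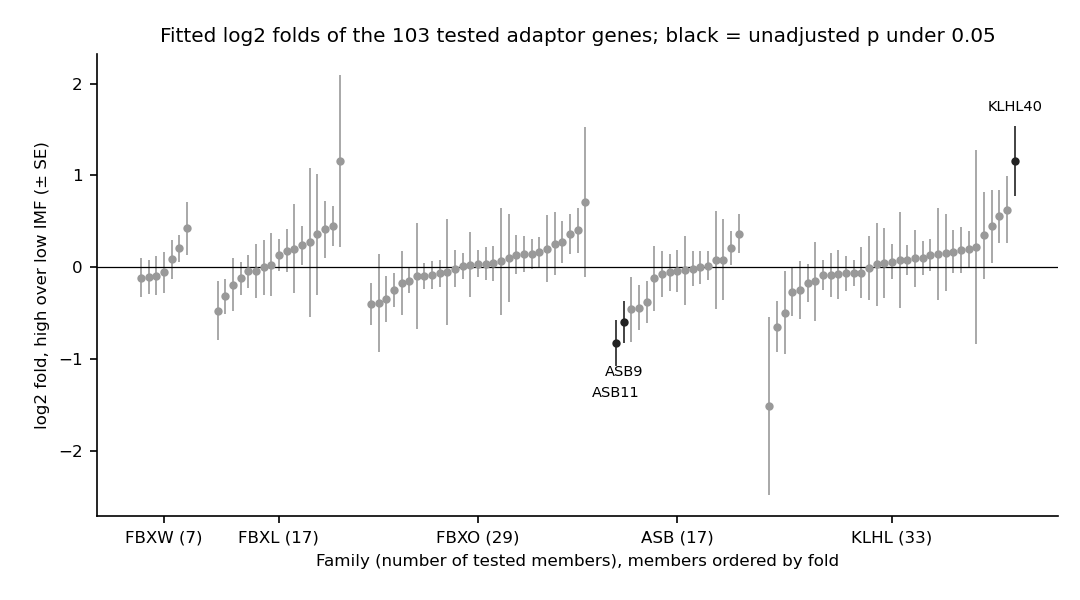
log2 difference of high minus low IMF for the 103 tested adaptors, by family, each point 1 gene in order of its difference and each bar its SE. Most genes lie near 0, and the 3 at an unadjusted p under 0.05 (KLHL40, ASB11 and ASB9) are black and named.

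In 10 adaptors (9.71%) the 3 high IMF libraries all lay above or all below the 3 low IMF libraries, against 13.0% of all genes. KLHL40, KLHL30, FBXO22 and FBXW2 were the 4 that lay above (6.86% of all genes did so), and ASB11, ASB9, ASB8, FBXL15, FBXO7 and FBXO8 the 6 that lay below (6.10% of all genes). Both shares for the adaptors were close to or under those of all genes in the same direction.

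ASB11, an adaptor of the endoplasmic reticulum known from work on muscle regeneration in fish, had the smallest p of the 103. With replicates 1 to 3 in order, as in all values that follow, it measured 103, 96.9 and 142 CPM in high IMF muscle against 146, 233 and 228 CPM in low IMF muscle. Low IMF replicates 2 and 3 were the highest, high IMF replicate 3 came within a few CPM of low IMF replicate 1, and the groups did not overlap. The means were 114 ± 24.3 and 203 ± 48.9 CPM (SD, n = 3), 1.78-fold higher in low IMF muscle, with a log2 difference of -0.83 (SE 0.25) that did not pass (edgeR adjusted p = 0.528; DESeq2 adjusted p = 0.131).

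KLHL40 had the largest difference among the muscle adaptors, at 459, 651 and 219 CPM in high IMF muscle against 167, 217 and 213 CPM. High IMF replicates 1 and 2 were far above the rest, while replicate 3 lay just above low IMF replicate 2, which was all that kept the groups from overlapping. The means were 443 ± 216 and 199 ± 27.7 CPM (SD, n = 3), 2.23-fold higher in high IMF muscle on the fitted scale, with a log2 difference of 1.15 (SE 0.38; edgeR adjusted p = 0.584). Leaving out high IMF replicate 2 brought the log2 difference to 0.75 and leaving out high IMF replicate 3 brought it to 1.47. Its unadjusted p was no longer under 0.05 when either high IMF replicate 2 or low IMF replicate 1 was dropped.

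Relative to KLHL41 the level of KLHL40 followed nearly the same order of libraries. The ratio of their FPKM values was 0.160, 0.233 and 0.0949 in high IMF against 0.0493, 0.0853 and 0.0854 in low IMF muscle. KLHL41 itself measured 2891, 2820 and 2333 CPM against 3419, 2567 and 2518 CPM, overlapping. Of the thin filament proteins that KLHL40 stabilises, leiomodin 3 (LMOD3) measured 405, 466 and 522 CPM against 756, 530 and 464 CPM and nebulin (NEB) 4508, 6397 and 5561 CPM against 5020, 5096 and 5712 CPM. Both transcripts overlapped between the groups, so neither had the pattern of KLHL40. Here and for the clients of other adaptors below only RNA was measured, and the stability or turnover of the proteins is not shown.

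ASB9, known to bind creatine kinase, was the third adaptor under an unadjusted p of 0.05. It measured 24.2, 18.6 and 31.9 CPM in high IMF against 43.7, 32.5 and 36.9 CPM in low IMF muscle. The groups did not overlap, but only a narrow gap parted the highest high IMF library, replicate 3, from low IMF replicate 2. The means were 24.9 ± 6.68 and 37.7 ± 5.65 CPM (SD, n = 3), with a log2 difference of -0.60 (SE 0.23; edgeR adjusted p = 0.639). Its unadjusted p was no longer under 0.05 without high IMF replicate 1, high IMF replicate 2, low IMF replicate 1 or low IMF replicate 3.

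Just outside that p lay KLHL21, a mitotic adaptor that directs Aurora B, at 132, 125 and 198 CPM against 167, 286 and 261 CPM (log2 difference -0.65, edgeR adjusted p = 0.693). High IMF replicate 3 lay above low IMF replicate 1, so the groups overlapped. FBXL14, an adaptor of the transcription factor SNAI1, followed at 13.1, 14.4 and 10.7 CPM against 7.32, 10.8 and 9.92 CPM (log2 difference 0.45, edgeR adjusted p = 0.750), then KLHL25, which targets the lipogenic enzyme ATP citrate lyase, at 21.3, 18.0 and 14.6 CPM against 7.65, 14.5 and 14.7 CPM (0.55, edgeR adjusted p = 0.764). For KLHL25 low IMF replicate 1 was well under the other 5 libraries, and the groups overlapped at the edge.

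**Figure D3:**
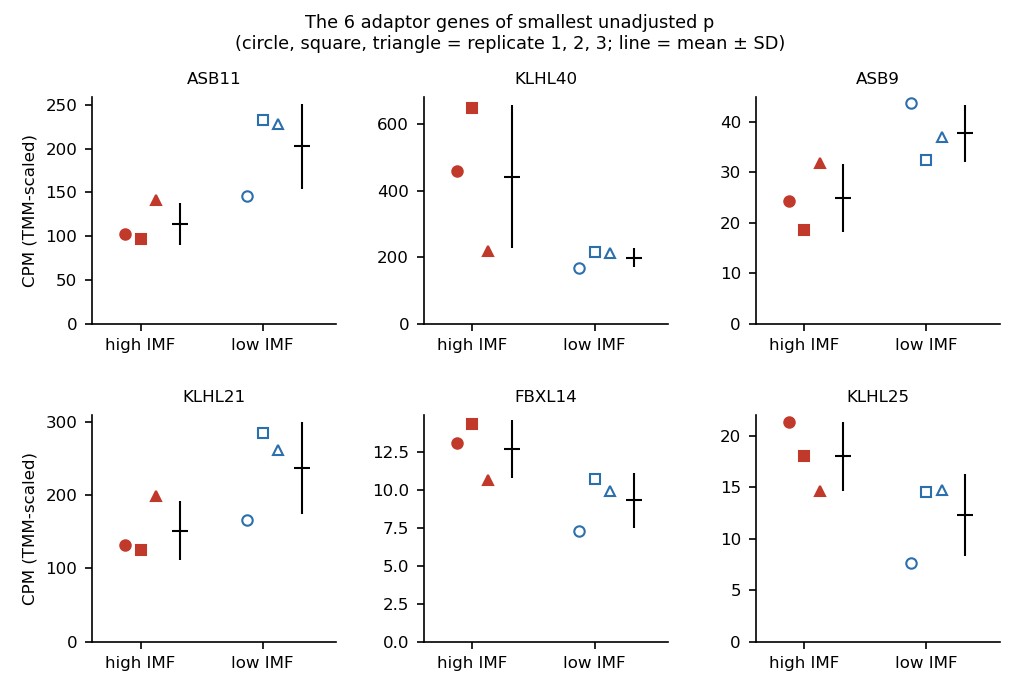
TMM-scaled CPM per library of the adaptors of smallest unadjusted p, each point 1 library, with high and low IMF side by side and the mean ± SD (n = 3) to the right of each group. ASB11 and ASB9 are higher in the 3 low IMF libraries, and for KLHL40 high IMF replicates 1 and 2 (459 and 651 CPM) stand above the other 4 libraries.

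Markers of other cells also varied between these libraries. For each marker list a level was taken as the median, over its genes, of how far log2 CPM lay from that gene's average. For the 12 adipocyte genes it was 0.56, 2.72 and -0.48 in high IMF against -2.62, 0.14 and -0.06 in low IMF muscle, with summed levels of 475.7 to 1037 CPM and 628 to 688 CPM. By both measures high IMF replicate 2, where KLHL40 was highest, was the highest for adipocyte genes. The lowest was low IMF replicate 1 by the median level, where KLHL40 was also lowest, but high IMF replicate 3 by the summed CPM, where KLHL40 was not. Most of the sum in low IMF replicate 1 came from PLIN4, PNPLA2 and FABP4 (345, 132 and 129 CPM). PLIN4 and FABP4 were highest of the 6 libraries there, whereas ADIPOQ, PLIN1 and THRSP were lowest, at 3.02, 1.56 and 0.146 CPM. The 10 fibroblast genes summed to 302 to 1714 CPM in the high and 366 to 901 CPM in the low IMF libraries, the 11 macrophage genes to 49.7 to 282 and 58.1 to 63.8 CPM, and the 10 endothelial genes to 528 to 983 and 1003 to 1157 CPM. The 13 lymphocyte genes summed to 19.6 to 39.0 and 7.49 to 22.4 CPM, and the 16 fibre genes to 146927 to 225142 and 178886 to 222418 CPM. LEP and the red cell genes SLC4A1 and ALAS2 were at 0 in at least 1 library, no gene of these lists was at 0 in all 6, and the part of cell composition in the adaptor values was not tested.

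Among the 7 muscle kelch genes 4 had a positive and 3 a negative difference, with 2 that did not overlap (KLHL40 and KLHL30), both higher in high IMF muscle. That is 28.6% of a list of 7, against 6.86% of all genes that lay above and 13.0% that did not overlap in either direction. KLHL30, a muscle kelch protein of less known function, measured 158, 152 and 160.3 CPM against 47.1, 127 and 131 CPM, with a log2 difference of 0.63 (edgeR adjusted p = 0.814). The 3 high IMF libraries were close together, and low IMF replicate 1 was far under the other low IMF libraries. Without that library the log2 difference was 0.27.

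The other muscle kelch genes overlapped between the groups and differed more among libraries than between groups. KLHL31, whose loss causes myopathy in mice, measured 459, 495 and 754 CPM against 353, 617 and 629.8 CPM. KLHL33 had 94.6, 233 and 339 CPM against 107, 252 and 244 CPM, with replicate 1 lowest in both groups. KLHL34 ran the other way, at 89.1, 56.7 and 25.5 CPM against 83.6, 55.8 and 51.5 CPM, with replicate 1 highest in both groups. KLHL38 measured 70.4, 66.1 and 107 CPM against 71.4, 110.3 and 112 CPM.

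In the 11 muscle ASB genes 9 differences were negative and 2 positive, with a median of -0.04, and 2 genes (18.2%) did not overlap, ASB11 and ASB8, both lower in high IMF muscle. Of all genes 51.2% had a positive difference, 13.0% did not overlap and 6.10% did so by lying lower. The level of the list was -0.52, -0.17 and 0.33 in high IMF against -0.07, 0.17 and 0.23 in low IMF muscle, and high IMF replicate 3 was the highest library, although most differences had the other sign. ASB8 measured 50.2, 74.9 and 95.8 CPM against 97.4, 103 and 98.8 CPM (log2 difference -0.44, edgeR adjusted p = 0.782). Its 3 low IMF libraries were nearly level, and high IMF replicate 3 lay just below them.

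ASB2 measured 519, 513 and 982 CPM against 618, 1119 and 1038 CPM, overlapping. Its filamin clients also overlapped: filamin C (FLNC), the muscle form, had 4755, 4618 and 3004 CPM against 3657, 4380.1 and 4464 CPM. High IMF replicate 3, the highest of its group for ASB2, was the lowest of the 6 libraries for FLNC. Low IMF replicates 2 and 3 went the other way: they were above low IMF replicate 1 for both ASB2 and FLNC. ASB15, linked to muscle growth and protein turnover, was among the 5 ASB genes with a positive difference, at 86.6, 118 and 145 CPM against 96.7, 86.3 and 88.7 CPM (0.36, edgeR adjusted p = 0.815). ASB5 measured 205, 172 and 167 CPM against 159.7, 189 and 196 CPM, the steadiest of the highly expressed muscle ASB genes. ASB16 (97.8, 142 and 242 CPM against 127, 202 and 195 CPM), ASB14 (16.1, 30.7 and 47.9 against 25.8, 34.1 and 37.2) and ASB4 (27.9, 36.4 and 42.6 against 35.0, 52.5 and 51.7) shared an order in which replicate 1 was lowest in both groups. ASB18 did the reverse, at 18.5, 5.65 and 7.65 CPM against 16.5, 6.67 and 7.05 CPM.

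**Figure D4:**
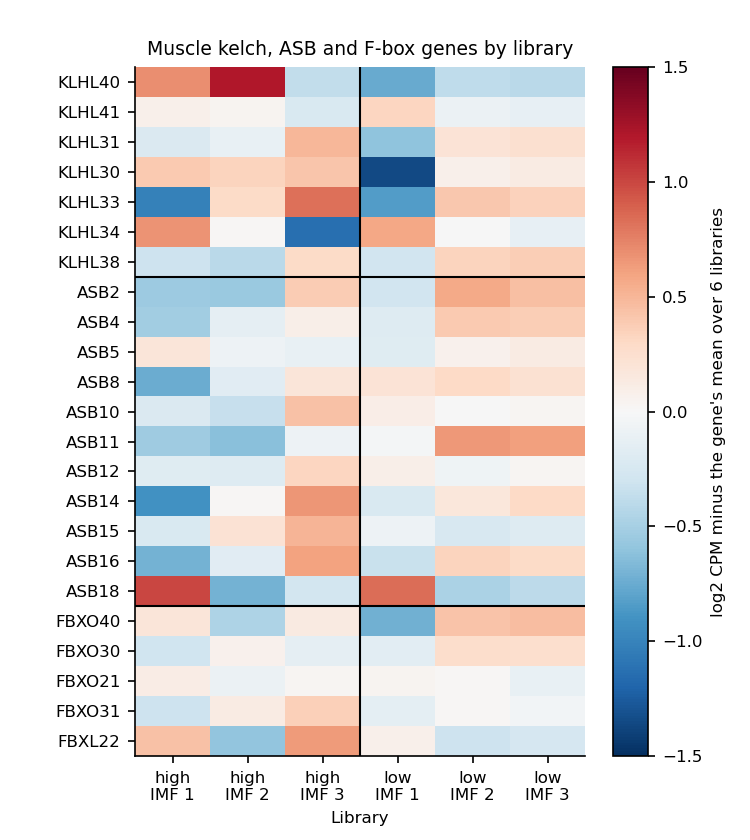
Colour map of how far each muscle adaptor lay from its own mean over the 6 libraries (log2 CPM, red above and blue below), with genes down and libraries across, for the muscle kelch, muscle ASB and muscle mass F-box genes. High and low IMF replicate 1 share low values for KLHL33, ASB14 and ASB16 and high values for KLHL34 and ASB18.

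The F-box genes known from muscle mass did not separate the groups. FBXO40, the adaptor for insulin receptor substrate 1, measured 440.3, 281 and 425 CPM against 236, 522 and 535 CPM. FBXO30, also known as MUSA1, had 19.8, 25.5 and 22.0 CPM against 21.8, 29.2 and 29.0 CPM, and FBXO21, also known as SMART, 20.4, 17.9 and 19.4 CPM against 19.5, 19.1 and 17.6 CPM. FBXO40 thus varied widely within the low IMF group, whereas FBXO21 was nearly flat over all 6 libraries. FBXL22, a sarcomeric adaptor known from the heart, measured 52.2, 25.5 and 60.0 CPM against 40.4, 30.9 and 32.2 CPM (0.41), with high IMF replicate 2 below every other library. FBXO32, outside the set, served as a reference: it had 139, 164 and 165 CPM against 118, 296 and 283 CPM, overlapping, with a log2 difference of -0.57 (SE 0.34; edgeR adjusted p = 0.825).

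Adaptors known from the circadian clock were also described. FBXL21, an adaptor for cryptochromes, measured 0.287, 0.919 and 1.19 CPM against 0.313, 0.630 and 0.924 CPM, and FBXW11, an adaptor of period proteins and beta-catenin, 35.0, 41.6 and 51.4 CPM against 33.3, 49.6 and 50.0 CPM. Both overlapped between the groups, and for both replicate 1 was the lowest library of each group. The cryptochrome CRY2 did not overlap, at 162, 95.3 and 94.6 CPM against 215, 173 and 170.3 CPM (log2 difference -0.66, edgeR adjusted p = 0.641), while CRY1 measured 26.6, 17.9 and 24.9 CPM against 25.7, 23.8 and 24.2 CPM and overlapped. Of the 13 listed clients of adaptors 2 (15.4%) did not overlap, both lower in high IMF muscle. Of all genes 13.0% did not overlap and 6.10% did so by lying lower.

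Adaptors of the cell cycle, mitochondria, iron and WNK kinases gave values of the same kind. FBXW7, the cyclin E adaptor, measured 23.7, 17.5 and 25.0 CPM against 25.1, 19.8 and 17.6 CPM, overlapping. FBXL4, needed for mitochondrial DNA maintenance, had 7.05, 28.0 and 27.8 CPM against 14.1, 22.3 and 18.2 CPM, and high IMF replicate 1 was the lowest. FBXO7, which acts in mitophagy, was lower in all high IMF libraries, at 20.7, 20.4 and 21.5 CPM against 23.7, 23.3 and 22.4 CPM, a small gap in a gene of little spread. The iron sensor FBXL5 measured 21.4, 17.4 and 15.6 CPM against 16.9, 16.1 and 16.7 CPM, and its client IREB2 46.1, 46.5 and 45.0 CPM against 51.9, 48.7 and 49.1 CPM, lower in every high IMF library. The same held for 6.10% of all genes. Of the WNK kinase adaptors KLHL2 was highest in replicate 1 of each group (22.4, 8.14 and 6.69 CPM against 12.9, 7.76 and 8.61 CPM) and KLHL3 lowest there (1.52, 4.26 and 2.14 CPM against 1.23, 2.74 and 3.57 CPM).

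Other F-box genes were named for the smallest p in their families, and none had an unadjusted p under 0.05. FBXO22, an adaptor of BACH1, measured 6.50, 5.89 and 5.53 CPM against 5.40, 4.27 and 4.30 CPM (log2 difference 0.36), and FBXW2 19.4, 20.6 and 22.1 CPM against 16.8, 19.4 and 17.6 CPM (0.21). Both lay higher in the 3 high IMF libraries, FBXW2 by less than the digits given here show. FBXL15, an adaptor of SMURF1, at 12.0, 11.1 and 13.8 CPM against 18.1, 13.8 and 14.0 CPM (-0.32), and FBXO8, at 5.35, 5.35 and 4.49 CPM against 8.30, 5.41 and 5.64 CPM (-0.35), lay lower, by margins that were thin beside the spread of low IMF replicate 1. FBXO10 (-0.40), FBXO45 (0.40), FBXL6 (-0.48), FBXW9 (0.42), FBXW5 (-0.12) and FBXW8 (-0.11) overlapped between the groups.

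The libraries numbered 1 stood together at an extreme for many adaptors. High IMF replicate 1 and low IMF replicate 1 were the 2 highest of the 6 libraries for 15 adaptors and the 2 lowest for 24, together 37.9% of the 103, against 26.3% of all genes. The libraries numbered 2 were the extreme pair for 5.83% of the adaptors and 6.34% of all genes, and those numbered 3 for 15.5% and 10.1%. The highest pair held KLHL41, KLHL34, KLHL24, KLHL6, KLHL2, ASB18 and FBXO39, and the lowest pair KLHL31, KLHL33, ASB4, ASB14, ASB16, FBXL17 and FBXO31. These were also the 2 libraries of highest slow fibre share, 74.6% and 36.9%, and the part of fibre type in these values was not tested. The labels do not say what the replicate numbers stand for.

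KLHL6, known from B cells, varied most within the groups, with a within-group SD of 1.71 (log2). It measured 19.6, 3.25 and 1.51 CPM against 15.6, 2.21 and 3.09 CPM, and was named after its values were seen. Replicate 1 of each group stood about alike and far above the other 4 libraries. Lymphocyte genes did not share that order in full: their level was 1.44, 0.48 and 0.39 in high IMF against 0.42, -0.99 and -1.11 in low IMF muscle.

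KLHL6 lies next to KLHL24, and 4 more pairs of these genes are neighbours in the RefSeq gene table of the donkey assembly EquAss-T2T_v2: ASB9 and ASB11, KLHL10 and KLHL11, FBXO17 and FBXO27, and FBXO32 and KLHL38. Neighbours are described because reads of overlapping or adjoining genes cannot be told apart where the counting does not use strand, and the strand setting is not given in the sources used here. ASB9 and ASB11, both lower in the 3 high IMF libraries, differed in their order of libraries: low IMF replicate 1 was the highest for ASB9 and the lowest of its group for ASB11. The genes on their outer sides overlapped between the groups, MOSPD2 at 7.73, 7.52 and 5.42 CPM against 8.88, 6.28 and 5.86 CPM and PIGA at 2.98, 3.08 and 2.40 CPM against 3.13, 2.30 and 2.53 CPM. The neighbours of KLHL40 overlapped too, HHATL at 188, 149 and 213 CPM against 213, 159 and 155 CPM and ZBTB47 at 126, 197 and 166 CPM against 101, 146 and 146 CPM.

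KLHL24, known from keratin turnover in skin, measured 258, 139 and 141 CPM against 207, 168 and 187 CPM, with replicate 1 highest in both groups as for KLHL6. KLHL10 and KLHL11 were both highest in low IMF replicate 1, KLHL10 at 1.65 CPM against 0.133 to 0.413 CPM in the other libraries and KLHL11 at 16.8 CPM against 5.42 to 9.01 CPM. KLHL10 is known from testis and lay near the floor in the other 5 libraries. FBXO17 and FBXO27, relatives that bind glycoproteins, did not share an order: FBXO17 was lowest (0.667 CPM) in low IMF replicate 1, where FBXO27 was highest (1.21 CPM).

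**Figure D5:**
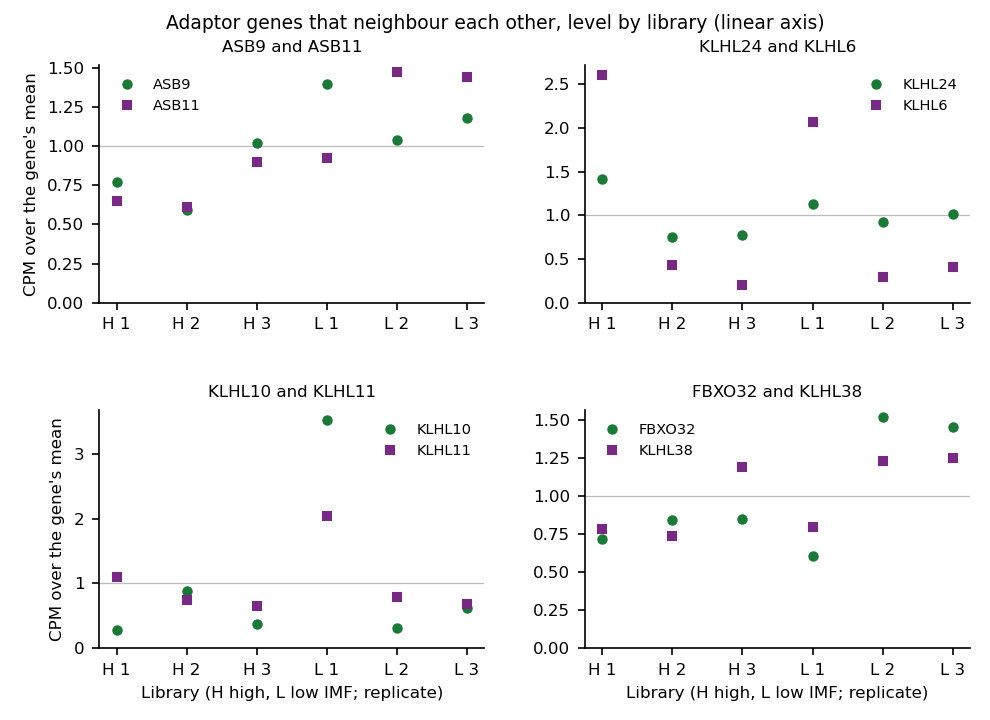
CPM per library divided by the gene's mean, on linear axes, for 4 pairs of genes that are neighbours in the RefSeq gene table, each point 1 library. KLHL24 and KLHL6 are both highest in high and low IMF replicate 1, and ASB9 and ASB11 differ in their order of libraries.

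The partners of the adaptors were taken from lists of 109 genes of the ligase machinery, of which 108 were tested. By edgeR 0 of 108 passed an adjusted p of 0.05, and 9 (8.33%) had an unadjusted p under 0.05, 5 higher and 4 lower in high IMF muscle, against 7.27% of all genes. There were 50 positive and 58 negative differences, with a median of -0.01, and the groups did not overlap for 12 genes (11.1%, against 13.0% of all genes). The scaffolds and linkers CUL1 (28.1 FPKM), SKP1 (139.8), RBX1 (109.1), CUL3 (15.8) and CUL5 (14.5) each overlapped between the groups. CUL7, the scaffold that pairs with FBXW8, measured 37.6, 36.4 and 29.7 CPM against 23.9, 25.3 and 27.0 CPM, higher in the 3 high IMF libraries (log2 difference 0.45, edgeR adjusted p = 0.603), whereas FBXW8 had 27.4, 21.0 and 18.7 CPM against 25.6, 21.9 and 24.8 CPM and overlapped.

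None of the 13 genes of the NEDD8 cycle, the 9 of the COP9 signalosome, the 8 partner ubiquitin-conjugating and RBR enzymes, the 8 F-box genes under other names and the 6 muscle RING ligases had an unadjusted edgeR p under 0.05. Among 21 other BTB adaptors SPOPL, the relative of the CUL3 adaptor SPOP, was higher at 31.8, 30.4 and 41.0 CPM against 20.8, 24.8 and 24.5 CPM (0.56, edgeR adjusted p = 0.549). RHOBTB1, a BTB protein that binds CUL3, had the smallest p of adaptors and partners together. It measured 75.0, 74.9 and 103.6 CPM against 163.8, 168.6 and 163.3 CPM, and the groups lay well apart. It was 1.96-fold higher in low IMF muscle (log2 difference -0.97) and did not pass in edgeR (adjusted p = 0.504), though it did with DESeq2 (adjusted p = 0.00334).

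Among 17 other SOCS box proteins, the class that shares CUL5 with the ASB family, 5 (29.4%) had an unadjusted edgeR p under 0.05, 3 higher and 2 lower, against 7.27% of all genes. SPSB3 was lower, at 28.7, 27.4 and 35.2 CPM against 40.8, 45.2 and 40.4 CPM (-0.47, edgeR adjusted p = 0.584). The cytokine signal inhibitor SOCS1 was higher but scarce, at 1.19, 0.900 and 0.492 CPM against 0.354, 0.364 and 0.267 CPM (1.39, edgeR adjusted p = 0.623). The other higher ones were SOCS7, at 46.9, 55.5 and 82.1 CPM against 46.5, 37.4 and 35.6 CPM, and SPSB2, at 4.42, 7.22 and 6.11 CPM against 2.63, 4.0 and 3.82 CPM, and neither passed (edgeR adjusted p = 0.639 for each). CISH rested on a single library, with 150.2 CPM in low IMF replicate 1 and 2.29 to 4.40 CPM in the other 5. SOCS7, SPSB2 and CISH were named after their values were seen.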

How the data were processed

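RNA-seq of 6 libraries was read as the raw read counts per gene that the authors deposited, with FPKM per library beside them. The deposited table also holds the authors' fold ratio, log2 fold, p-value and adjusted p-value, per the file headers. The submitters' processing notes name HISAT2 and mm9, a mouse build, so the genome used for these donkey reads is not settled. Counts in the 6 files of single libraries equalled those of the series table. The counter, annotation and strand setting were not given in the sources used here.

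Counts were tested with edgeR 4.0.16 in R 4.3.3 (TMM, filterByExpr defaults, quasi-likelihood F-test, group only, Benjamini-Hochberg over the 15933 genes tested). Standard errors are the log2 difference divided by the root of F. Depth was 39052998 to 47494157 reads, and the tested genes held 99.96% of them. DESeq2 1.42.0, limma-voom (limma 3.58.1), other scaling and filters, the replicate number as a block, each library left out and a sum of low IMF replicates 2 and 3 were the alternatives. The test was checked on simulated counts. Of the 110 genes 107 matched the RefSeq table of EquAss-T2T_v2 by symbol, which was used for names and neighbours only.

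Named were, per family, the 4 genes of smallest p and the 3 of highest FPKM, the members of lists by role, and up to 2 genes of smallest p per partner list. The members and lists were chosen with earlier results of these data known. The values of 1 gene of these families are not reported here.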

Additional observations from a re-analysis of the deposited data

How the results depend on the processing

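No adaptor passed an adjusted p of 0.05 under any of the 14 alternatives, with edgeR, limma-voom and DESeq2, although 194 genes of all passed with DESeq2 and 3 without high IMF replicate 1. Scaling by library size alone moved the median log2 difference of all genes from 0.01 to 0.15 and that of the adaptors to 0.16, with 81 of 103 positive. Leaving out each library gave 2 to 11: 5 without high IMF replicate 1, and 11 (4 higher and 7 lower) without high IMF replicate 3, where 12.5% of all genes had such a p. The 7 and the other counts with a library left out lack the share of all genes, so they are no result about the adaptors. Groups that did not overlap numbered 13 to 30 with a library left out. With fewer libraries the groups part more readily for any gene, so these counts are no result about the adaptors. The median log2 difference of the adaptors ran from -0.02 to 0.16 over the alternatives.

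Of 27 named genes 25 kept their direction under every alternative. FBXW8 was at 0.0497 with library size alone, and FBXW5 ran from -0.31 to 0.0014 with a library left out, the highest without low IMF replicate 1. ASB11 ran from -1.03 to -0.70 with an unadjusted p under 0.05 throughout, KLHL40 from 0.75 to 1.47, ASB9 from -0.82 to -0.45, and KLHL21 from -0.89 to -0.50. SOCS1 was not tested under the stricter filter. RHOBTB1 passed with DESeq2 and with no other alternative.

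Libraries of the same number had correlated deviations of 0.19, 0.14 and 0.01 for numbers 1, 2 and 3. Pairs of unlike number ran from -0.21 to 0.20, the highest being high IMF replicate 2 with low IMF replicate 3. As the deviations were taken within groups of 3 libraries, these values cannot decide whether the numbers pair them. With the replicate number as a block 0 adaptors passed, and the median log2 difference of the adaptors was -0.01. In that fit 4 of 103 had an unadjusted edgeR p under 0.05 (1 higher and 3 lower), against 7.45% of all genes. Depth limits the 7 untested genes, with 2 to 45 reads in all, and also tested genes of few reads such as FBXL2 and FBXO5.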
